A study of Drosophila melanogaster with 3 samples.

Results

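The 290 transfer RNA (tRNA) genes that the Ensembl annotation places on the chromosome arms of Drosophila melanogaster, of 18277 annotated genes there, were examined for binding of wek. They were taken by their annotated biotype alone, so no measured value chose them. Whole embryos aged 0 to 16 hours, males and females together, of the strain wek-GFP were used for chromatin immunoprecipitation and sequencing (ChIP-seq). In this stably transgenic line, GFP is fused to the C terminus of wek. The labels give 1 group of 3 biological replicates from this 1 line and name no second genotype or treatment, so there was no condition to compare. The free text of each library speaks of an input control, while its assay title and antibody label name ChIP of wek, and the libraries were taken as wek ChIP. Regions had been called against the same control for each replicate, and no untagged line was analysed here. The expression of the fusion, and the cells of the embryo in which it is bound, cannot be read from these lists.

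tRNA genes are transcribed by RNA polymerase III (Pol III) from promoters that lie within the transcribed sequence, the A box and the B box. TFIIIC binds these boxes and places TFIIIB just upstream of the gene, and TFIIIB recruits the polymerase. wek (weckle) belongs to the ZAD family of zinc finger proteins and takes part in Toll signalling in the fly embryo.

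The genes were 71 to 186 bp long, with a median of 73 bp, and decoded 22 isotypes, initiator methionine and selenocysteine included. Many are copies: the 290 genes had 95 distinct sequences, and 238 had at least 1 identical copy on the arms. By position, 127 lay within introns of protein-coding genes, 7 overlapped exons and 156 were intergenic. Only 16 had an intron of their own. A protein-coding transcription start site (TSS) lay within 500 bp of 33 of them. Joined wherever neighbours were at most 1000 bp apart, they formed 174 loci, of which 105 held 1 gene and the largest held 7. The unit of the counts is the gene, but genes of 1 locus can share a region and are not independent.

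The sequences of 6 bound genes are shown because the strongest tRNA-associated region and the single summit that fell inside a tRNA gene belong to the first 3 of them, and because they show how alike the copies are. They have no stretch of 20 bases in common with an arm whose sequence is not printed here, and are read 5′ to 3′ on the gene's strand from the RefSeq genome of release 6, the dm6 build. Capitals mark the match to GTTCNANNC, a core of the B box, searched on the gene's own strand.
Tyr-GTA-1-6 (3R:8668116-8668208, minus strand): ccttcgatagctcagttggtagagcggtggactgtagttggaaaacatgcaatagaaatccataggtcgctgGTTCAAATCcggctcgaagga
Tyr-GTA-1-7 (3R:8668612-8668705, minus strand): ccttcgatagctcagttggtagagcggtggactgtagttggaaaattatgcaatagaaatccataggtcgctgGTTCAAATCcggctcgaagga
Tyr-GTA-1-8 (3R:8669081-8669174, minus strand): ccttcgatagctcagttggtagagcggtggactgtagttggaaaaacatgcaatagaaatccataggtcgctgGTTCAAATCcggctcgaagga
Val-CAC-2-5 (3R:19672277-19672349, minus strand): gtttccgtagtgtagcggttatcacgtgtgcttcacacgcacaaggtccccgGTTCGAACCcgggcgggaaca
Asp-GTC-1-4 (2L:8541552-8541623, minus strand): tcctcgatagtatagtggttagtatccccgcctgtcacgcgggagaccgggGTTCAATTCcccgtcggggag
Asp-GTC-1-5 (2L:8541761-8541832, plus strand): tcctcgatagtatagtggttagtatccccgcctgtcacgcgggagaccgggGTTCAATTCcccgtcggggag

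The 3 tyrosine genes had 1 and the same spliced sequence of 73 bases and differed only in an intron of 20 or 21 bases, so each full sequence occurred once among the 290. The Asp-GTC genes belong to a family of 12 identical genes, and Val-CAC-2-5 to one of 6. The core was found in 271 of the 290 genes (93.4%) and in 25 of the 27 bound genes (92.6%), against 2.07% of all windows of 73 bases on the 5 arms, with either strand counted there. The core was thus common to the members and did not separate the bound ones from the others.

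The summit is the base at which the authors' caller placed the centre of a region, and a gene was counted as bound when the summit of a thresholded region lay within it or within 500 bp of its nearer end. wek was bound at a minority of the tRNA genes. Of the 290, 27 were bound (9.31%, 95% exact binomial interval 6.23 to 13.3% over genes), in 19 of the 174 loci (10.9%). Windows of the median tRNA length at every position of the 5 arms reached 2.77%, so the members' share was 3.36 times that of arbitrary sequence. It was below the 15.4% of protein-coding genes with a summit within 500 bp of a TSS. Genes of other small RNAs gave 8.55% for the 269 snoRNA genes and 3.12% for the 32 snRNA genes. In the 2-replicate alternatives the number of bound genes was 17 without replicate 1 and 17 without replicate 3, against 25 without replicate 2.

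The replicates were then read separately, each as its own 3582 regions of highest signal, the length of the thresholded list. Replicate 1 had 28 tRNA genes within 500 bp of such a summit, replicate 2 had 20 and replicate 3 had 41 (29.7 ± 10.6, SD, n = 3). Their shares of 9.66%, 6.90% and 14.1% compare with 2.76%, 2.74% and 2.77% of windows and with 16.0%, 13.0% and 16.1% of protein-coding genes. In each replicate the tRNA share thus lay above that of windows, by ratios of 3.5, 2.52 and 5.1, and below that of coding genes. The numbers of regions with a q-value of at most 0.01 were 8919, 2216 and 9834. The 3582 regions taken from replicate 2 thus include some above that value. Replicate 2, with the fewest regions at that value, also had the fewest tRNA genes. Counted by locus, the numbers were 18, 17 and 26, so replicates 1 and 2 were close. Read depth is unknown, and its part in the order of the replicates was not tested.

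**Figure D1:**
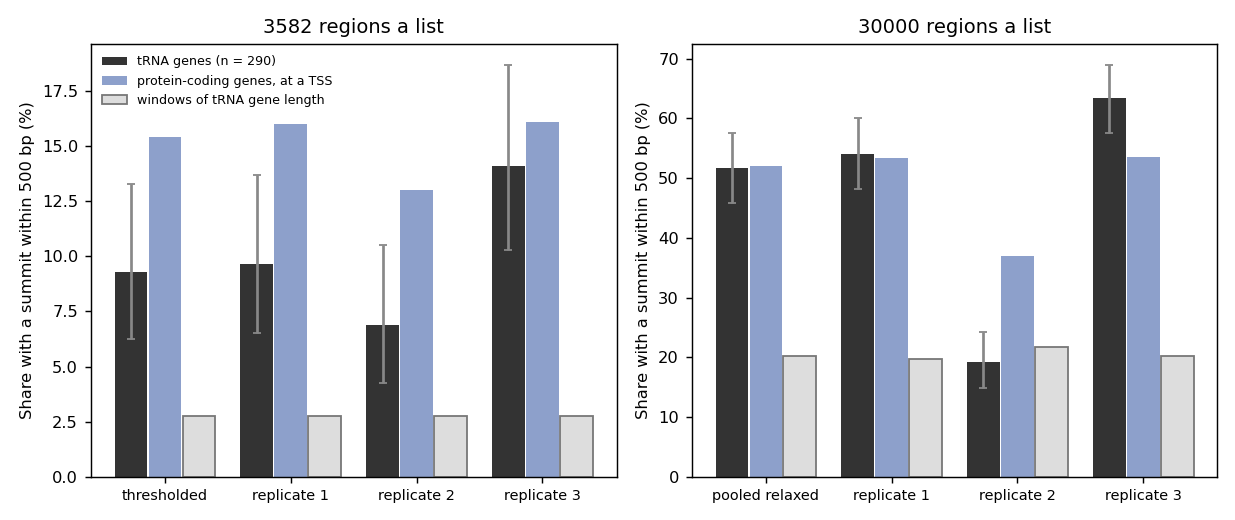
Share of tRNA genes (dark bars, with 95% exact binomial intervals over genes), of protein-coding genes with a summit at a TSS (blue) and of windows of tRNA gene length (grey) that have a summit within 500 bp, in percent. On the left are the thresholded list and the 3582 highest regions of each replicate, on the right the lists of 30000 regions, where replicate 2 stands at 19.3% against 54.1% and 63.4% in replicates 1 and 3.

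The 2 strongest regions at tRNA genes, at Tyr-GTA-1-8 and Phe-GAA-1-2, also lay at protein-coding promoters. Region signals, the authors' own values, ran from 149 to 755 over the 21 thresholded regions at tRNA genes, with a median of 206 against 218 over all 3582. Only 9 of the 21 were among the 1791 thresholded regions of higher signal. A coding TSS lay within 500 bp of the summit in 10 of the 21 regions (47.6%), against 51.1% of all thresholded regions. These 10 regions served 13 of the 27 genes, and 14 genes had a summit with no coding TSS within that distance. That count of 14 fell to 9 without replicate 1 and to 8 without replicate 3, and was 9 with a limit of 250 bp and 4 among the 1791 regions of higher signal.

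The first of these regions lay beside Tyr-GTA-1-8, which sits in an intron of CG8036 on the opposite strand and in an intron of p on the same strand. Its region (3R:8669241-8669488) had a signal of 755 in the thresholded list, and the summit was 202 bp upstream of the tRNA gene and 242 bp from a TSS of CG8036. The overlapping regions ranked 296, 307 and 179 in replicates 1, 2 and 3. This locus holds 2 more bound genes: the summit of a second region (3R:8667975-8668344, signal 154) fell within Tyr-GTA-1-6, 48 bp from its 5′ end, and 452 bp from Tyr-GTA-1-7. That region ranked 2828 in replicate 1 and 1913 in replicate 3, while replicate 2 had no overlapping region. The pair of regions therefore differed in support, with all 3 replicates behind the stronger one.

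The second region in order (X:6744059-6744353, signal 639) had its summit 17 bp from a TSS of RpL17, a protein of the large ribosomal subunit, and 250 bp downstream of Phe-GAA-1-2. It ranked 338, 396 and 220 in the replicates. The sequences around these summits are shown because they lie outside the tRNA genes; they run on the plus strand from 50 bases before to 50 after the summit, and capitals mark the 11 bases centred on it.
summit beside Tyr-GTA-1-8 (3R:8669326-8669426): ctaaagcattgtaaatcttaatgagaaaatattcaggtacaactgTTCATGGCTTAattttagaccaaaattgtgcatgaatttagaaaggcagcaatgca
summit beside Phe-GAA-1-2 (X:6744171-6744271): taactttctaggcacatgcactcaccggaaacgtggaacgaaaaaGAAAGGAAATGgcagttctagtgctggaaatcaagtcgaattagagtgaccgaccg

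Other members had their summit within 500 bp of a coding TSS as well. Ile-AAT-1-3, in an intron of ATP8A, had a region of signal 350 with the summit 195 bp downstream of the tRNA gene and 192 bp from a TSS of ATP8A. Its ranks of 833, 885 and 881 in the replicates lay close together. Val-CAC-2-5, in an intron of Naam, was 407 bp from a summit of signal 337, which lay 420 bp from a TSS of Naam. Trp-CCA-2-2 and Gly-GCC-1-9 shared a region of signal 305 whose summit was 44 bp from a TSS of CG30122, and no region of replicate 3 overlapped it. Replicate 3 instead had a region of rank 2845 with its summit inside Trp-CCA-2-2. Thr-AGT-1-4 was 117 bp from a summit of signal 302, which lay farther, 374 bp, from a TSS of CG31279. Leu-TAA-2-1 was 202 bp from a summit of signal 188, which lay 373 bp from a TSS of CG13605. His-GTG-1-3 was 152 bp from a summit of signal 199, which lay 98 bp from a TSS of CG8490. The Asp-GTC-1-4 and Asp-GTC-1-5 pair was 426 and 217 bp from a summit of signal 197. That summit lay 98 bp from a TSS of Sema1a, an axon guidance semaphorin.

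The strongest region with no coding TSS near its summit was that of Ile-AAT-1-9 (2R:19714970-19715197), whose signal was 446 and which ranked 520, 878 and 471 in replicates 1, 2 and 3. Its summit was also the farthest from its gene, 489 bp upstream. Arg-CCT-1-2 and Arg-CCT-1-3, which decode arginine and stand head to head, flanked a summit of signal 278 that lay 188 bp upstream of the first and 263 bp upstream of the second. Ranks there were 974 and 1196 in replicates 1 and 2 but 5587 in replicate 3. Glu-TTC-1-5, a glutamate gene, had a summit 77 bp away where the signal was 238 and the replicates ranked it 1298, 2244 and 4036. Both of these regions were thus lowest in replicate 3.

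The initiator methionine genes iMet-CAT-1-1 and iMet-CAT-1-2 shared a region with Glu-TTC-1-4 (2R:19725703-19726072, signal 188), the largest number of members at 1 region. The summit was 17 bp upstream of iMet-CAT-1-2. It ranked 1949 in replicate 1 and 2297 in replicate 3 and had no overlapping region in replicate 2. Leu-CAG-1-5 and Leu-CAG-1-6, within an intron of Sarm, shared a region of signal 211, also with no counterpart in replicate 2 but with rank 528 in replicate 3. These regions thus rested on replicates 1 and 3.

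The remaining bound genes had regions with signals from 149 to 206. Ala-TGC-2-1 had a signal of 206, Val-AAC-2-3 in an intron of CG10713 had 200, and Thr-AGT-1-2, which overlaps an exon of CG12831, had 182 with the summit 51 bp upstream. Gln-TTG-2-1, in an intron of CG12535, was flanked by summits on both sides, 245 bp upstream with a signal of 157 and 227 bp downstream with 152. The second was the one thresholded region at tRNA genes that the highest regions of no replicate overlapped. Gly-TCC-2-2 closed the list with a signal of 149.

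Of the 21 regions, 18 were met by a highest region of replicate 1, 13 by one of replicate 2 and 15 by one of replicate 3, or 85.7%, 61.9% and 71.4%. Over all thresholded regions the same shares were 85.9%, 71.9% and 73.3%. All 3 replicates supported 9 of the 21, and 11 of the 27 genes were near the highest regions of all 3. The thresholded list was made from these replicates, so their support is no independent evidence for it.

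**Figure D2:**
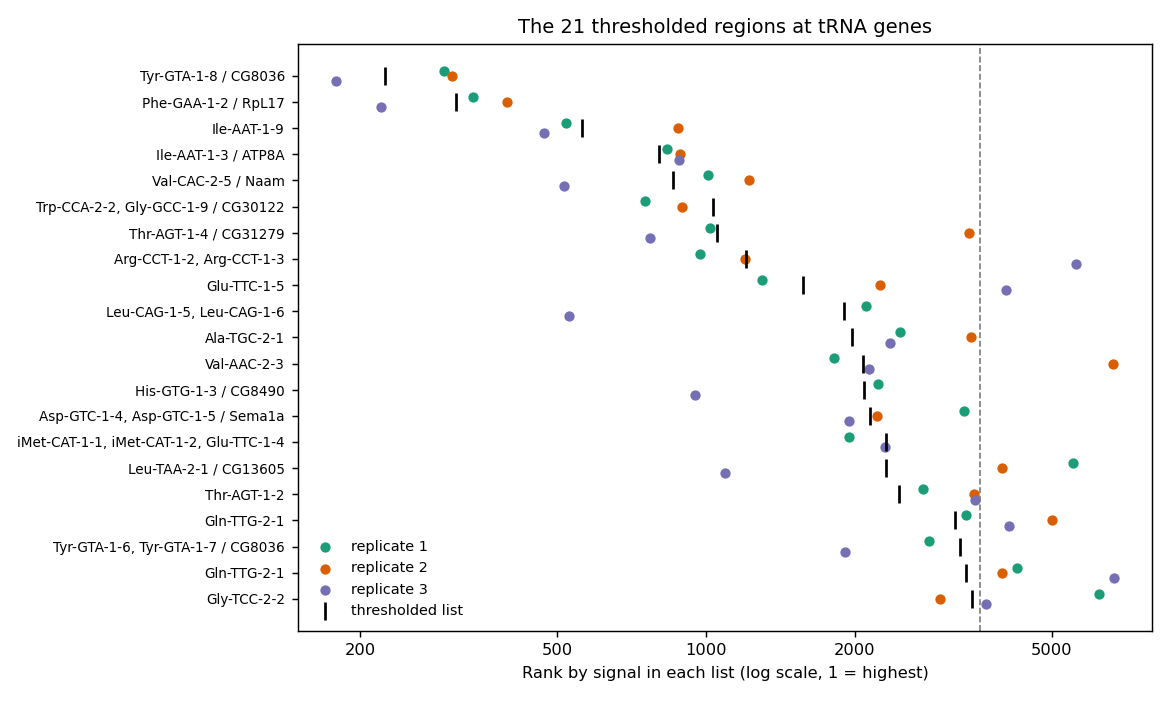
Rank by signal (log scale, 1 is the highest) of the 21 thresholded regions at tRNA genes, in the thresholded list (black ticks) and of the overlapping region in each replicate (points), with the nearby tRNA genes and, after the slash, coding genes with a TSS within 500 bp of the summit. The dashed line is at 3582, the number of regions compared per replicate, and a missing point means that the replicate's list had no overlapping region, as for 4 regions in replicate 2 and 1 in replicate 3.

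Members just inside and just outside the limit were alike in kind. Inside it were Ile-AAT-1-9 at 489 bp, Tyr-GTA-1-7 at 452 bp, Leu-CAG-1-5 at 451 bp, Asp-GTC-1-4 at 426 bp and Gly-GCC-1-9 at 412 bp. Outside it were Glu-TTC-1-6 at 598 bp, Leu-CAA-2-1 at 608 bp, Ala-AGC-2-1 at 729 bp, Val-AAC-2-4 at 772 bp and Ala-TGC-1-1 at 783 bp. Of these 5, all but Ala-AGC-2-1 were nearest to a region already counted for a neighbouring tRNA gene.

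Nearness to a coding promoter went with a higher share of bound members. Of the 33 tRNA genes with a coding TSS within 500 bp of the gene, 10 were bound (30.3%, interval 15.6 to 48.7%), against 11.3% of windows with such a TSS. Of the other 257, 17 were bound (6.61%, interval 3.90 to 10.4%), against 1.58% of windows without one. The ratios to the windows were 2.68 and 4.19, so the members exceeded arbitrary sequence on both sides of this division. The share of 30.3% fell to 18.2% without replicate 1 and likewise to 18.2% among the 1791 regions of higher signal. The share of 6.61% fell to 4.28% without replicate 1, to 3.89% without replicate 3, to 3.50% with a limit of 250 bp and to 1.95% among the 1791 regions of higher signal. Window shares were not computed for these settings, so 11.3% and 1.58% are not the background of the lower shares.

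The relaxed list called on the pooled replicates holds 30000 regions, of which only 6488 had a q-value of at most 0.01. Most of its regions are thus weak ones. In this list about as many members had a summit as had none. There were 150 such genes (51.7%, interval 45.8 to 57.6%), against 20.3% of windows, and they lay in 88 of the 174 loci (50.6%). Protein-coding genes reached 52.0%, snRNA genes 50% and snoRNA genes 25.7%. Here the members' shares were close with and without a coding promoter, though the first rests on few genes. Of the 33 genes with a coding TSS nearby, 18 had a summit (54.5%, interval 36.4 to 71.9%). Of the 257 others, 132 had one (51.4%, interval 45.1 to 57.6%). The windows differed, with 46.4% near a coding TSS and 16.6% elsewhere. Of the 131 pooled regions at tRNA genes, 18 had a coding TSS within 500 bp of the summit (13.7%). The same share over all 30000 pooled regions was not computed, so no comparison is drawn from it. The median signal of these 131 regions was 68.5, and that of all pooled regions 59.2.

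Among members with a pooled but no thresholded summit, Glu-CTC-2-3 had the highest signal, 143. Its region ranked 4703 in replicate 1, 15041 in replicate 2 and 896 in replicate 3. Ala-AGC-2-2, Ala-AGC-2-3 and Pro-TGG-1-2 shared the next region, with a signal of 125, a rank of 3391 in replicate 1, a rank of 4254 in replicate 3 and no overlapping region in replicate 2. Pro-AGG-1-1 followed with 119.

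The replicates differed most in their relaxed lists, where most regions of each list had a q-value above 0.01. With 30000 regions in each, 157 tRNA genes had a summit within 500 bp in replicate 1, 56 in replicate 2 and 184 in replicate 3 (132 ± 67.5, SD, n = 3). The shares were 54.1%, 19.3% and 63.4%, and those of windows 19.7%, 21.7% and 20.2%. Replicates 1 and 3 were thus above the windows, at ratios of 2.75 and 3.14, while replicate 2 was at 0.89. Protein-coding genes had 53.4%, 37% and 53.6%, so replicate 2 was lower there too but stayed above the windows. Of the 290 members, 35 had a relaxed summit in all 3 replicates, 101 in replicates 1 and 3 but not 2, 7 in replicate 2 alone and 78 in none. The pooled list also had a summit at 82 of those 101.

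The difference was greatest over the tRNA genes themselves. Within 100 bp of a relaxed summit were 69 genes in replicate 1, 3 in replicate 2 and 102 in replicate 3. These are 23.8%, 1.03% and 35.2% of the members, against 6.00%, 6.07% and 6.08% of windows. The 3 genes of replicate 2 were Thr-AGT-1-2, Thr-TGT-2-2 and Glu-TTC-1-5. Summits lay inside the gene in 15 gene and summit pairs of replicate 1 and 37 of replicate 3, and in none of replicate 2. The 100 bp just upstream of the 5′ end held 38 summits in replicate 1 and 53 in replicate 3, and the 100 bp from the 5′ end onward held 19 and 40. Replicate 2 had 2 and 0 there. At the mean density of summits on the 5 arms, such a stretch of the 290 genes would hold 6.5 in each list. Summits in replicate 2 were thus fewer over tRNA genes than on the arms as a whole, and those in replicates 1 and 3 more numerous.

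**Figure D3:**
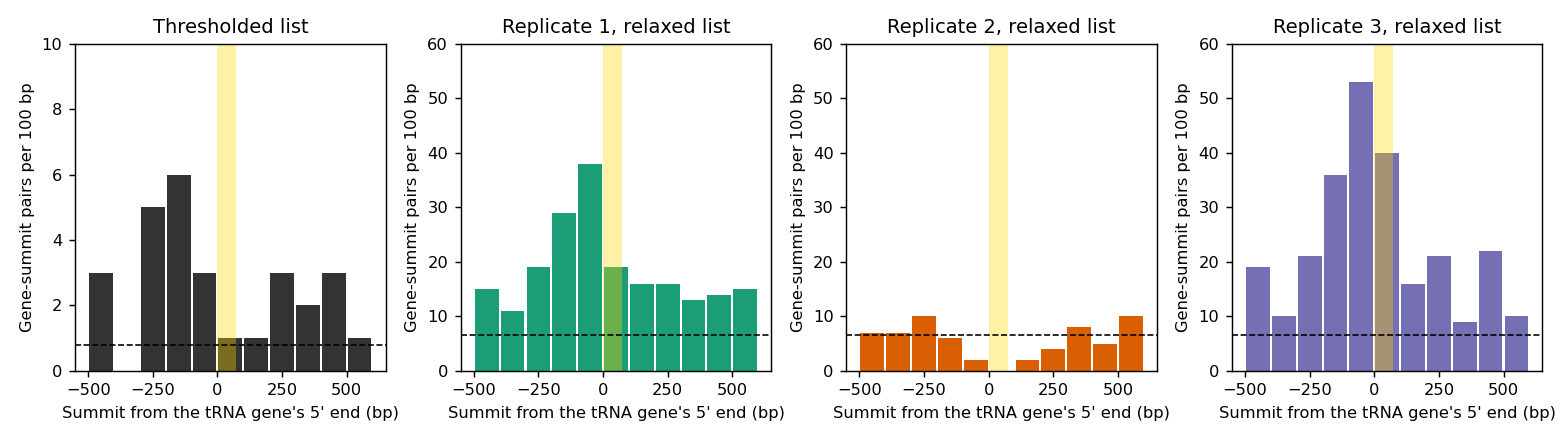
Number of tRNA gene and summit pairs per 100 bp by the summit's position from the 5′ end of the tRNA gene, on the gene's strand, for the thresholded list and the relaxed list of each replicate. The yellow band spans the median gene of 73 bp, the dashed line is the mean density of the 5 arms, and the vertical scale of the thresholded list differs from the others. Replicates 1 and 3 peak just upstream of and over the gene, where replicate 2 has 2 summits in all.

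The U6 snRNA genes, which Pol III transcribes from an upstream promoter, were counted in the same way. All 3 U6 genes had a relaxed summit within 500 bp in replicates 1 and 3 and none in replicate 2. The RNase P gene likewise had one in replicates 1 and 3 and none in replicate 2. Of the 2 7SK genes 1, and the RNase MRP gene, had a relaxed summit in all 3 replicates. The U6atac gene and 1 of the 96 5S rRNA genes had one in replicate 1 only. Windows stood at 19.7%, 21.7% and 20.2% in replicates 1, 2 and 3. With 3 U6 genes and 1 RNase P gene, the missing summits in replicate 2 cannot show a difference between replicates. At equal list lengths of 10000 regions of highest signal, a comparison chosen after the values were seen, 88, 26 and 113 tRNA genes had a summit in replicates 1, 2 and 3. These shares of 30.3%, 8.97% and 39% compare with 7.32%, 7.53% and 7.37% of windows and with 33.8%, 22.3% and 33.8% of protein-coding genes. Replicate 2 was thus near the windows. A length of 10000 exceeds the number of regions with a q-value of at most 0.01 in every replicate. With the 3582 highest regions, 20 of 44 pairs of replicate 3 were within 100 bp and 9 were inside the gene, against 7 and 1 of 28 pairs in replicate 1 and 1 and 0 of 20 in replicate 2.

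Replicate 3 accordingly had 20 members near its highest regions that the thresholded list did not reach, against 3 in replicate 1 and 4 in replicate 2. For 14 of the 20 the summit was within 100 bp of the gene, and 1 of the 20 had a coding TSS nearby. The first of them by rank, named after their values were seen, were Glu-CTC-2-3 at 896, the pair Phe-GAA-1-4 and Phe-GAA-1-5 at 1395 and Ile-AAT-1-8 at 1674. In replicate 1 their ranks were 4703, 7251 and 6141. In replicate 2, Glu-CTC-2-3 had a region of rank 15041 and the other genes had none.

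Copy number and read placement bear on such sequences, and whether reads that map to several places were kept is not given in the sources used here. Counted over stretches of 50 bases that occur once in the RefSeq genome, the gene with 500 bp on each side was unique over a median of 96.2% of its positions. The median was 96.7% for the 27 bound genes and 96.0% for the others. It was 95.2% for the 101 genes with a relaxed summit in replicates 1 and 3 but not 2, and 96.8% for the 76 with no summit in any list. Under 50% of the positions were unique at 5 genes, none of them bound. Over the stretches that overlap the gene itself, the median was lower, 77.0% for all members, 77.2% for the bound genes and 77.7% for those 101, and 4 genes, none bound, had no unique stretch there. The part of read placement in the difference between replicates was not tested.

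Thresholded summits lay on both sides of the tRNA genes. Taking the nearest summit of each of the 27 genes, 16 lay upstream, 1 inside and 10 downstream. The median position was −100 bp from the 5′ end, with an interval from −197 to 288 bp that spans both sides, and the median distance from the gene 202 bp. Of all 28 pairs, 1 had its summit in the 100 bp from the 5′ end onward and 3 in the 100 bp before it, against 0.78 per 100 bp at the mean density of the arms. In the pooled list, 104 of 196 pairs were upstream, 17 inside and 75 downstream. The B box core was found on either strand within 100 bp of 4 of the 21 summits (19.0%) and of 6.81% of all 3582 summits. These 21 were chosen for lying near tRNA genes, of which 93.4% hold the core, and 5 of the 28 pairs were within 100 bp. The comparison is therefore not independent of that choice, and nothing is drawn from it. Of 3 further words of 8 letters, searched on both strands in the same 201 bases, GAATACCC was at none of the 21 summits and at 2.90% of all summits. TATCGATA was at 1 of the 21, the one at CG30122, and at 3.88% of all. GGTCACAC was at none and at 3.77% of all. With 21 summits, a word at these shares would be met less than once, so its absence says nothing of the members.

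Clusters of tRNA genes shared regions. The 27 bound genes met 21 regions: 13 genes shared 6 regions with at least 1 other member, and 14 had a region of their own. Loci of 1 gene were bound in 7 of 105 cases (6.67%), loci of 2 or 3 genes in 10 of 59 (16.9%) and loci of 4 or more in 2 of 10. A locus counted as bound when any of its genes was, and no background of matching length was counted. Locus shares are therefore not comparable across sizes. Counted per gene, the shares were 6.67%, 13.4% and 3.92%. A locus of 7 isoleucine and leucine genes on 2R (2R:13430282-13432794) had a thresholded summit at 1 gene. Its pooled summits, some shared by neighbouring genes, were within 500 bp of all 7. A locus of 7 arginine and serine genes on X (X:14014814-14017284) had neither at any gene. A locus of 6 cysteine and lysine genes on 3L (3L:3095737-3097590) had pooled summits at all 6 and no thresholded summit.

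By isotype, 15 of the 22 had a bound member. Tyrosine and leucine had the most, 3 of 10 and 3 of 22 genes. No thresholded summit was found at the 80 genes for asparagine, cysteine, lysine, elongator methionine, proline, selenocysteine and serine. With the relaxed pooled list every isotype had a member with a summit, from 15% of the 20 serine genes to 80.0% of the 10 asparagine genes and 83.3% of the 6 initiator methionine genes, beside the single selenocysteine gene. By arm, 2R, which carries 98 of the members, had 14 bound genes (14.3%, against 2.94% of windows on 2R), and X had 2 of 24 (8.33%, against 2.46% of windows on X). Pooled summits were at 61 of 98 members on 2R (62.2%, windows 20.8%) and at 4 of 24 on X (16.7%, windows 18.5%). Intronic and intergenic members were bound at 7.87% and 10.3%.

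**Figure D4:**
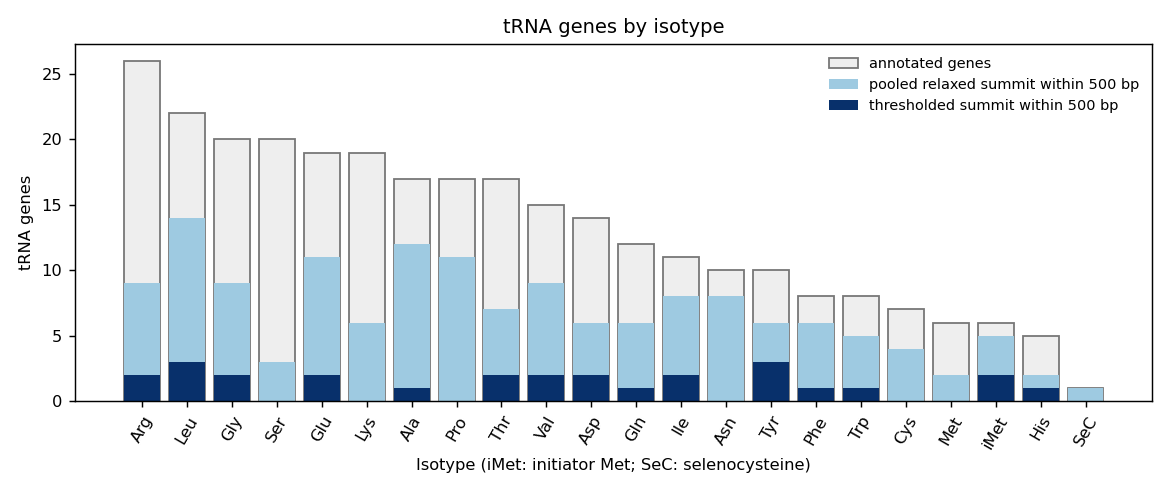
Number of annotated tRNA genes by isotype (open bars), of those with a pooled relaxed summit within 500 bp (light blue) and of those with a thresholded summit (dark blue). Asparagine has 8 of 10 genes in the pooled list and none in the thresholded list, and serine 3 of 20 and none.

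The genes that encode the tRNA machinery were read from 4 lists, by summits within 500 bp of a TSS. Of 55 such genes 7 were bound (12.7%), against 15.4% of protein-coding genes, and 10, 10 and 7 were near the highest regions of replicates 1, 2 and 3 (9 ± 1.73, SD, n = 3). The members' share was thus near the background. Of 12 Pol III subunits 3 were bound. Polr3F had a signal of 941 and replicate ranks of 107, 163 and 899, with the summit also within 500 bp of a TSS of PyK, the glycolytic pyruvate kinase. Polr3E had a signal of 281, with a summit shared with CG10584. The largest subunits, Polr3A and Polr3B, were not bound.

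Among 6 genes of TFIIIB, TFIIIC and their regulators, both bound ones encode TFIIIB subunits. Nearly all TFIIIC names were not matched to the annotation, so TFIIIB and TFIIIC were not compared. Brf had a signal of 262 and a summit shared with sds22, and Bdp1 had 283 and a summit shared with CG6565. Brf ranked 1005 and 1208 in replicates 1 and 2 and 4352 in replicate 3. Tbp, Trf and the Pol III repressor Maf1 were not bound, though Maf1 was near a highest region of replicate 2. Of 20 cytosolic aminoacyl-tRNA synthetases, which charge tRNAs with their amino acids, beta-PheRS (169) and GlnRS (157) were bound, the second at a summit shared with RIOK2. None of 17 genes of tRNA processing and modification was bound, and 1, 0 and 0 of them were near the highest regions of the replicates.

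Other RNAs made by Pol III mostly had no thresholded summit. None of 96 annotated 5S rRNA genes, 3 U6 genes, 1 U6atac gene, 2 7SL genes and 1 RNase P gene had one. Of 2 7SK genes 1 had one, with a signal of 473, and the RNase MRP gene had a pooled but no thresholded summit, with a signal of 129. The share of windows with a thresholded summit was 2.77%. Uniqueness of sequence was not counted for these genes, so a missing summit does not show that a gene was unbound.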

How the data were processed

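The labels and accompanying file lists describe deposited region lists on dm6. The authors' deposited signal per region and −log10 q-value per region are values of their caller. 3 replicate lists and 1 pooled list hold 30000 regions each, and the thresholded list holds 3582. The aligner, the caller, their versions and the threshold were not given in the sources used here. Files hold no read counts, so depth is unknown; intervals are exact binomial at 95% over genes and cover counting error only. The signal ranked regions within 1 list.

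The members, lists and tests were chosen with earlier results of these data known. Genes and TSSs came from Ensembl release 115 (BDGP6.54). A gene counted when a summit lay within 500 bp of its nearer end. Windows of 73 bases at all positions of 5 arms gave the background. Of 69 machinery symbols, 11 were not matched, among them nearly all TFIIIC names, and the rest named 55 genes. All bound members were named, as were the 5 just outside 500 bp, the 5 strongest with a pooled summit alone, and the bound machinery genes, except an item that is not reported here. No set test was run. Replicates were counted singly, and p-values were not computed. Distances were checked on simulated data. Alternatives changed the distance, the list length, the replicates and the joining of loci. Python 3.11.15, pandas 2.3.3, numpy 2.4.6, scipy 1.17.1 and matplotlib 3.10.9 were used.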

Additional observations from a re-analysis of the deposited data

How the results depend on the processing

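Of 70 alternatives over 10 results, 56 stayed within 1.5 times a count, 1 SD of a mean over replicates, or the 95% interval of a share or of the median position. Dropping 1 of 3 replicates cannot move their mean by 1 SD. Those alternatives among the 56 could not fail and show no stability. Within its wide 95% interval, the bound share of members near a coding TSS still moved from 30.3% to 18.2%. The median position, also within its interval, moved from −100 to −51 bp with 1 summit per locus and to −22 bp in the pooled list. With a limit of 250 bp, bound tRNA genes without a coding TSS at the summit numbered 9, and the bound share of members without a nearby coding TSS was 3.50%. With 1000 bp, the mean number near each replicate's highest regions was 42.3. Among the 1791 regions of higher signal, 11 genes, 9 loci and 4 genes without a coding TSS at the summit were left, and the share was 1.95%. These settings also change the number of regions within reach, and the cause of the changes was not tested. The 1791 highest regions of each replicate gave a mean of 11. Choosing regions from 2 replicates at a time gave 17 to 25 bound genes, 8 to 14 without a coding TSS at the summit and 3.89 to 6.61% for that share; the cause was not tested. Within 100 bp, an alternative chosen after seeing the data, the mean number near the relaxed regions was 58. The unknown depth limits comparison between replicates.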
